A study of Mus musculus with 34 samples.

Results

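Cardiac fibroblasts 3 days after virus carrying LacZ (LacZ D3, 2 arrays) were set against the fibroblasts from which the course started, taken on day 0 (CF D0, 2 arrays). The samples were taken by their titles, 4 of the 34 in the series. LacZ encodes a bacterial enzyme and serves as the control for virus that carries the cardiac factors Mef2c, Gata4 and Tbx5 (MGT). The comparison spans virus and 3 days of culture together, and no sample in it had culture without virus. Both groups were CD1 mouse cells that carry aMHC-GFP, a reporter driven by the promoter of a cardiomyocyte myosin gene, and both came from hearts of pups at postnatal day 1.5. The protocol names retrovirus for the MGT cells, while the vector of LacZ and the medium of the control cultures are not given in the sources used here. RNA was hybridised to single-colour Agilent arrays with 59305 probe spots. The labels do not say whether the replicates of a group were separate cultures, so p-values measure only the spread between replicate arrays. That spread was pooled over the 22 arrays of the LacZ and MGT course, 11 groups with CF D0.

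Fibroblasts of the newborn heart make and turn over the matrix between the muscle cells. When they are plated on plastic they are exposed to serum, stiffness and the stress of isolation, and they can take on features of myofibroblasts, which build contractile actin bundles and secrete collagen. Fibroblasts also answer danger signals through the factor NF-kappaB, which drives cytokine genes, and viral nucleic acid through interferon-stimulated genes.

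The 4 arrays had 32994 to 38362 spots well above background. Across genes the replicates correlated at r = 0.998 in LacZ D3 and r = 0.994 in CF D0, and arrays of different groups at r = 0.962 to 0.963. The LacZ D3 arrays were on a slide scanned on another day than the slide of CF D0, so slide, scan day and group cannot be told apart. CF D0 shared its slide with LacZ D14, the LacZ culture of day 14, and the values of LacZ D14 are given beside the main results as a comparison within 1 slide. Replicate 2 of LacZ D14 was noisy, with a median variation of 23.8% between replicate spots, against 3.4% to 6.44% on the 4 arrays. Between replicates, 1793 genes differed by at least 2-fold in LacZ D14, against 240 in LacZ D3 and 475 in CF D0. LacZ D3 was scanned on the same day as LacZ D10 but on another slide, so slide and day of culture cannot be told apart between those 2 groups. A level is log2 of a gene's intensity relative to the 75th percentile of its array. A change is LacZ D3 minus CF D0 on that log2 scale, n = 2 arrays each. Its standard error from limma, from the pooled spread of the 22 arrays, stands after ±. Genes were called at a Benjamini-Hochberg adjusted p under 0.05 and at least 2-fold.

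The cells carried fibroblast markers on all 4 arrays. Vim, an intermediate filament of mesenchymal cells, stood at 7.96 and 7.97 in LacZ D3, against 8.04 and 7.97 in CF D0. Pdgfra, a growth factor receptor of cardiac fibroblasts, stood at 2.46 and 2.52 in LacZ D3, against 3.06 and 3.01 in CF D0. RNA of other cell types was present as well. In RNA from a whole culture, fewer cells of a type and less RNA per cell cannot be told apart. The macrophage receptor Csf1r had 3.72 and 3.74 in LacZ D3, against 3.83 and 3.70 in CF D0. The cardiomyocyte myosin Myh6 had 2.39 and 2.42 in LacZ D3, against 2.51 and 2.46 in CF D0. These 2 genes show only that such RNA was present. Of 19 macrophage markers 4 were lower in LacZ D3 and 2 higher, and of 21 cardiomyocyte markers 8 were lower and 2 higher. Over all genes 7.28% were lower and 11.6% higher.

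Of 18055 genes tested, 3408 were called (18.9%), 2094 of them higher in LacZ D3 (11.6%) and 1314 lower (7.28%). The median gene changed by -0.03. Every count of list members called in LacZ D3 relative to CF D0 stands beside these shares, 11.6% higher and 7.28% lower. Among the higher genes 65 passed 16-fold, and among the lower genes 35 did. Many of the higher genes could not be measured on day 0: 601 of the 2094 were well above background on no CF D0 array and 167 on 1. For the lower genes, 205 of 1314 were well above background on no LacZ D3 array and 48 on 1. Dim genes were called more often than bright ones. Genes with a mean level under -4 were called in 28.3% of cases, and genes at 4 or more in 7.95%. A gene that was dim on every array of its lower group has a bound instead of a change (at least so many fold), with the dimmest signal still well above background on each array as a floor.

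**Figure D1:**
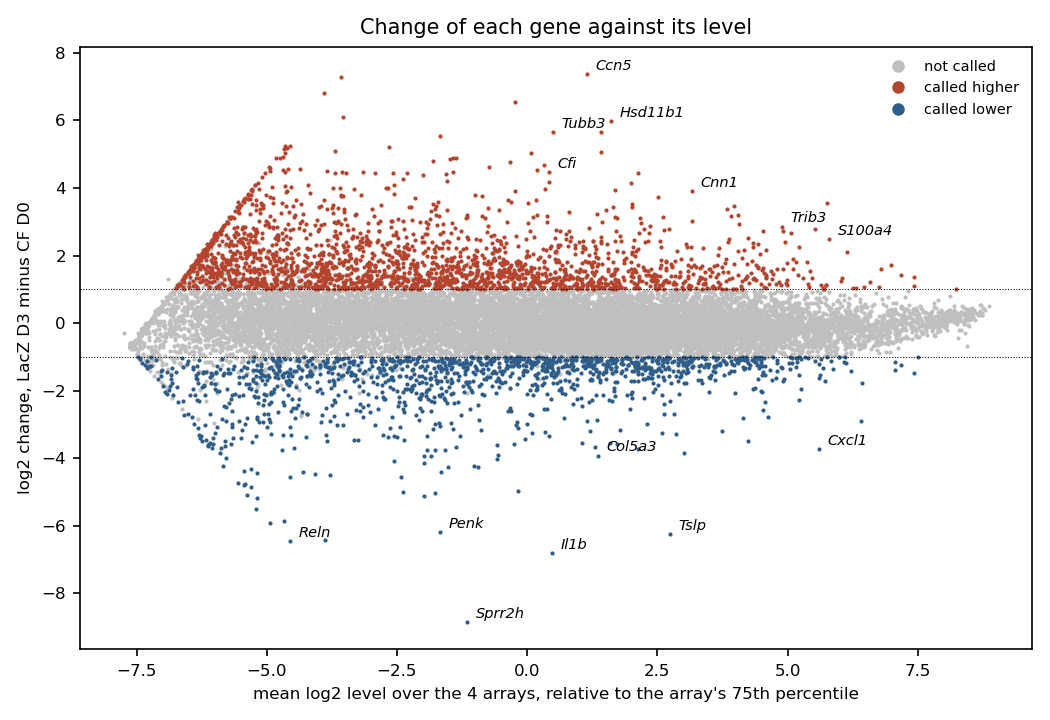
Log2 change of each tested gene (vertical axis, LacZ D3 minus CF D0) against its mean log2 level over the 4 arrays (horizontal axis, relative to the 75th percentile of the array). Each point is 1 gene, coloured by its call, and the dotted lines mark 2-fold. The 2094 genes called higher and the 1314 called lower lie at all levels, and the sloping edges at the left hold genes near the lower limit of measurement in 1 group.

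The gene with the highest rise was Ccn5, a secreted matricellular protein known as a Wnt target. It stood at 4.72 and 4.93 in LacZ D3, against -2.51 and -2.57 in CF D0, a change of 7.36 ± 0.11 (adjusted p = 2.2e-13). The 2 groups were far apart, and LacZ D14 lay higher still, at 6.27 and 6.39. Scel, which encodes the epithelial envelope protein sciellin, rose by 6.55 ± 0.12, Hsd11b1, the enzyme that regenerates active glucocorticoid, by 5.98 ± 0.10, and the matrix protein gene Spon2 by 5.66 ± 0.11. Each of these 3 was above background on all 4 arrays. Mrap2, an accessory protein of melanocortin receptors, was at least 34.0-fold higher and not well above background on either CF D0 array.

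Rpl10l and Fbxw18 had their highest LacZ levels on day 3. Rpl10l, a retrogene copy of a ribosomal protein gene, stood at -0.47 and -0.50 in LacZ D3, against -6.99 and -7.63 in CF D0, at least 23.1-fold higher. It lay at -6.24 and -7.07 in LacZ D10 and at -6.67 and -5.73 in LacZ D14, below the dimmest signal well above background on each of those arrays (-3.96, -4.82, -4.68 and -4.16). Fbxw18, an F-box gene, was also at least 23.1-fold higher, at -0.55 and -0.42 in LacZ D3, against -6.94 and -6.21 in CF D0. It was lower again by day 10 (-1.93 ± 0.21, adjusted p = 9.3e-06). Both were lower in MGT D3 than in LacZ D3 on the same slide, with Rpl10l at -1.46 and -1.64 and Fbxw18 at -2.61 and -2.91 in MGT D3.

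Tubb3, a tubulin usually used as a neuronal marker, was among the largest rises at 3.35 and 3.28 in LacZ D3, against -2.47 and -2.20 in CF D0 (5.65 ± 0.17, adjusted p = 4.5e-11). The probe of Tubb3-ps1, a pseudogene on another chromosome, changed by 5.54 ± 0.15. The 2 probe sequences are nearly the same, so RNA of either gene may bind both, and which of them is measured is uncertain. They are shown as the array files give them, in mm9 coordinates, 5′ to 3′, with the longest run of letters they share in capitals (15 of 60 bases, and 52 of 60 lie in shared blocks).
Tubb3 probe (chr8:125945850-125945909, + strand): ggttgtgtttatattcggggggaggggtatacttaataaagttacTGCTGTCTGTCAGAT
Tubb3-ps1 probe (chr6:136350102-136350161, + strand): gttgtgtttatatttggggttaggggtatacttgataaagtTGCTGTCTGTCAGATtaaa

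Cytokine and chemokine genes held the largest fall of any list. Of 22 tested, 16 fell and 0 rose in LacZ D3, with a median change of -2.75, beside -0.03 over all genes tested. The median level of the list was -0.17 and -0.23 in LacZ D3, against 3.07 and 2.98 in CF D0. In neoCF, the freshly isolated fibroblasts of the series, on the slide of CF D0, it was 0.59 and 0.26. Why CF D0 lay above neoCF was not tested. Il1b, the inflammatory cytokine interleukin 1 beta, stood at -2.91 and -2.94 in LacZ D3, against 4.03 and 3.77 in CF D0. Its change was -6.83 ± 0.33 (adjusted p = 2.2e-09), and every LacZ D3 value lay below every CF D0 value. Tslp, an epithelial and stromal cytokine, fell by 6.25 (-0.30 and -0.48 in LacZ D3, against 5.82 and 5.90 in CF D0, adjusted p = 1.3e-11). The colony-stimulating factors Csf3 (-5.12 ± 0.82) and Csf2 (-4.24 ± 0.43), which direct the production of granulocytes and macrophages, fell too.

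Neutrophil-attracting chemokines followed. Cxcl1 had 3.73 and 3.75 in LacZ D3, against 7.46 and 7.48 in CF D0 (-3.73 ± 0.23, adjusted p = 2.4e-08), Cxcl2 changed by -3.54 ± 0.22 and Cxcl5 by -2.91. The tumour necrosis factor gene Tnf fell by 3.25. Levels on day 3 were still high for Ccl2, the main monocyte chemokine, which was the first gene of the list and did not pass 2-fold: it stood at 8.10 and 8.14 in LacZ D3, against 8.78 and 8.80 in CF D0 (-0.67 ± 0.12). Quantile normalization took Ccl2 to -1.06, past the threshold. Ccl8, Cx3cl1, Csf1, Il33 and Cxcl12 were not called either. On the slide that CF D0 shared with LacZ D14, 18 of the 22 were lower in LacZ D14 and 3 higher, where 14.7% of all genes were lower and 16.9% higher. That comparison uses the same CF D0 arrays. Between LacZ D10 and LacZ D3, scanned on 1 day, 8 were lower in LacZ D10 and 3 higher, where 6.2% of all genes were lower and 5.15% higher. Cxcl1 changed by -2.75 ± 0.23 there.

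Promoters of 14 of these 22 genes were in the RefSeq table (GRCm38.p6), each a window of 300 bases that runs from upstream of the gene's start to just past it. The NF-kappaB consensus matched 5 of the 14 on either strand, against 8.18% of all 27025 promoters, and 4 of the 9 whose gene fell. A match is a description of the letters only. The promoters of Cxcl1 and Cxcl2 are given because both genes fell by over 8-fold and carry the same 11-letter stretch, where the match reads on both strands. They are on the strand of the gene, 5′ to 3′, with matches in capitals.
Cxcl1 (chr5:90890995-90891294, + strand): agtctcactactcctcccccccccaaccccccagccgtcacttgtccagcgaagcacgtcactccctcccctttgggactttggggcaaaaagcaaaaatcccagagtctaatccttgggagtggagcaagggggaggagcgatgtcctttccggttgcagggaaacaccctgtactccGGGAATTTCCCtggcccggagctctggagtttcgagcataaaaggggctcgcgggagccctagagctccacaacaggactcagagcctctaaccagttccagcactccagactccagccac
Cxcl2 (chr5:90903649-90903948, + strand): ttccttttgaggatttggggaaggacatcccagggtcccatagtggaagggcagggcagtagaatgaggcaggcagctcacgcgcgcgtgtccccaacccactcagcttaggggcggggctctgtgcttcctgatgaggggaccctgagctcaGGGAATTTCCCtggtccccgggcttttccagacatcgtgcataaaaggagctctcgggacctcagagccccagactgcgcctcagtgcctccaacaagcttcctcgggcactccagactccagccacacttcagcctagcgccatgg

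Most interferon-stimulated genes, which block viral replication, were not called on day 3. The median of the list was 4.11 and 4.14 in LacZ D3, against 4.33 and 4.23 in CF D0. It was far lower in neoCF, on the slide of CF D0, at 0.78 and 0.14. The list thus already stood high on day 0, and the cause was not tested. Of 32 tested, 7 fell and 0 rose (median change -0.36). Rsad2, the antiviral enzyme viperin, led the falls at 1.47 and 1.49 in LacZ D3, against 4.28 and 4.05 in CF D0 (-2.69 ± 0.36, adjusted p = 2.6e-05). Cxcl10, an interferon-induced chemokine, changed by -1.96 ± 0.28 and the antiviral GTPase Mx1 by -1.90 ± 0.36. The other 4 that fell were Cmpk2, Ifit2, Oas3 and Ifit3. Levels of Isg15, a ubiquitin-like modifier, were nearly equal at 7.91 and 7.88 in LacZ D3, against 7.82 and 7.86 in CF D0 (0.05 ± 0.14, adjusted p = 0.78), and a dimmer probe of Isg15 gave -0.58. Ifit1, an RNA-binding antiviral protein, was not called (-0.30 ± 0.19, adjusted p = 0.2).

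The later LacZ days were lower than day 3. In LacZ D10 relative to LacZ D3, 20 of the 32 were lower and 0 higher, where 6.2% of all genes were lower. Isg15 changed by -1.46 there and Ifit1 by -1.33. In LacZ D14 relative to CF D0, on 1 slide, 25 were lower and 1 higher, where 14.7% of all genes were lower. For MHC class I, which presents peptides to T cells, 2 of 16 genes fell, the immunoproteasome subunit Psmb9 (-1.42 ± 0.18) and the peptide transporter Tap1 (-1.32 ± 0.17), while B2m, the invariant light chain, stood at 8.15 and 8.14 in LacZ D3, against 7.90 and 7.87 in CF D0 and was not called.

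The interferon-stimulated response element, searched on both strands as GAAA, any 2 letters and GAAA again, matched 14 of the 23 promoters of the list that the table holds, against 3.49% of all promoters, and 4 of the 6 whose gene fell. The element was thus found both among genes that fell and among genes that did not. Those of Rsad2 and Cxcl10, which had the largest falls, are printed with the match in capitals, which in Rsad2 reads on the opposite strand.
Rsad2 (chr12:26456403-26456702, - strand): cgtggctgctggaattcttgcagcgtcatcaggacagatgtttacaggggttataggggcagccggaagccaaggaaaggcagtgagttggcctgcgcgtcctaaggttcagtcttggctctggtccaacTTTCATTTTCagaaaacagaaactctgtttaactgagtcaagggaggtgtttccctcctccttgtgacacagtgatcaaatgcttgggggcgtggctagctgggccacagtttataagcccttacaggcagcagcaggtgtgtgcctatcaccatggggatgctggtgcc
Cxcl10 (chr5:92348840-92349139, - strand): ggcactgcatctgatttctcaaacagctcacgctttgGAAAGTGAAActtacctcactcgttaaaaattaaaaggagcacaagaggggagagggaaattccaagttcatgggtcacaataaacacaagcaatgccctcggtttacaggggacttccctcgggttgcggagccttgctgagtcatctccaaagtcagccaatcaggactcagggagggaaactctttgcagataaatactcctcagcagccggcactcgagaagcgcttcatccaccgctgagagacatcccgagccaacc

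Complement genes had more rises than falls. These encode proteins of serum and tissue that mark and lyse microbes, and proteins that restrain them. Of 17 tested, 9 rose and 1 fell (median 1.41). Cfi, a protease that inactivates C3b, stood at 2.67 and 2.64 in LacZ D3, against -1.79 and -1.85 in CF D0 (4.48 ± 0.07, adjusted p = 2.2e-13). The member that fell was Cfb (-2.41 ± 0.23), which forms the alternative pathway convertase. With all 34 arrays of the series in the fit, Cfb was not called (adjusted p = 0.22).

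Among the components of the classical pathway, the C1q chains that macrophages make rose, C1qa by 2.22 ± 0.40 and C1qc by 2.54 ± 0.44, and so did the proteases C1ra (1.41) and C1s1 (1.79) and C4b (1.82). C3, the central component, was not called (0.69). On the slide of CF D0, 13 of the 17 were higher in LacZ D14 and 1 lower, where 16.9% of all genes were higher. The macrophage list beside them had 2 of 19 higher and 4 lower. Its summed level, as log2, was 7.22 to 7.23 in LacZ D3, against 7.63 to 7.75 in CF D0. The part of macrophage RNA in the rise of the C1q genes was not tested.

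**Figure D2:**
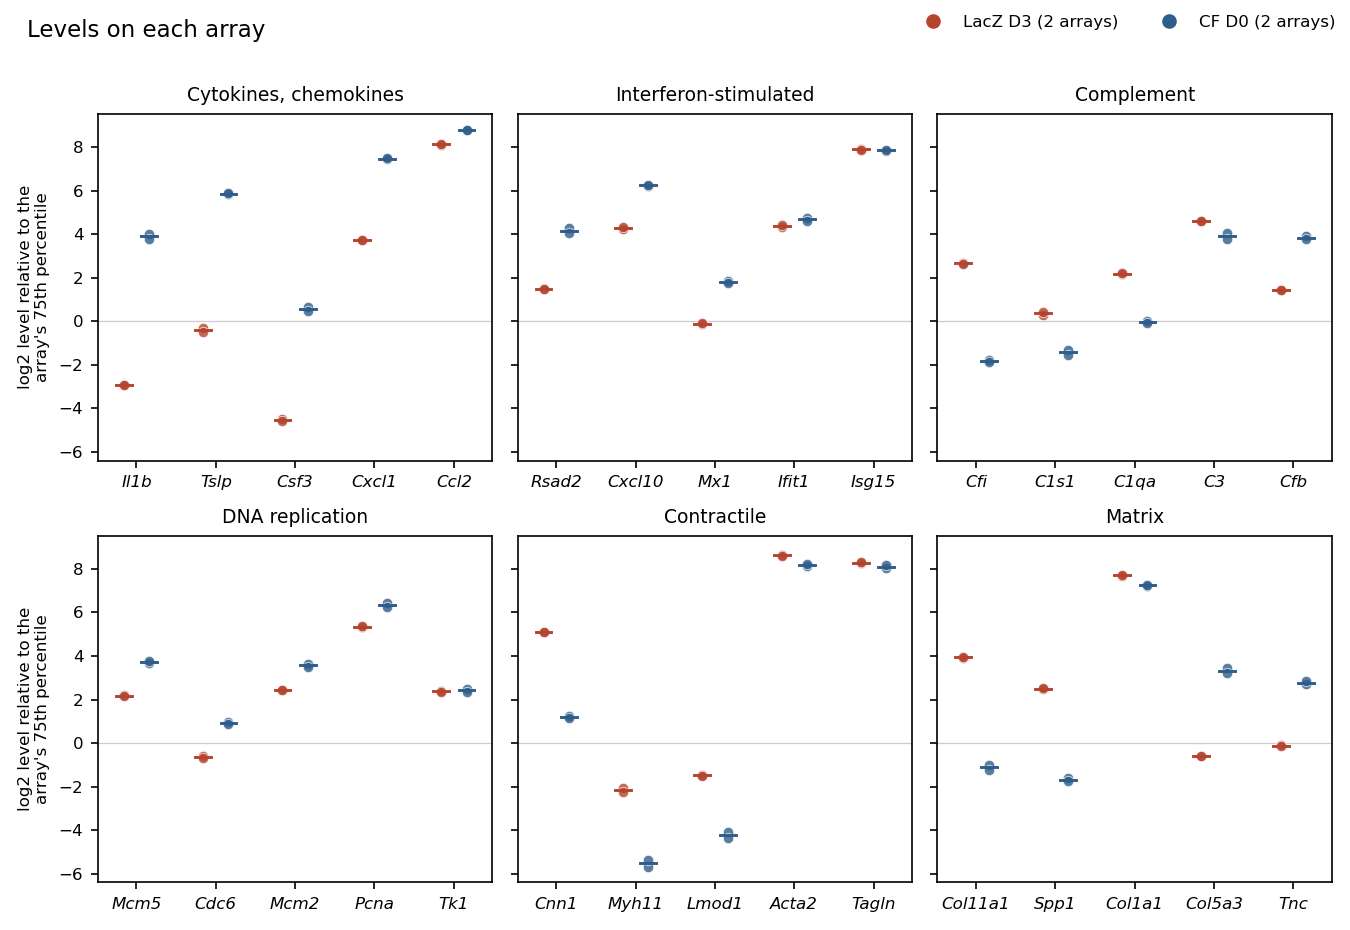
Levels of 30 genes on each array (vertical axis, log2 relative to the 75th percentile of the array), with LacZ D3 left of CF D0. Points are arrays and short lines the mean of 2. Il1b, Tslp, Csf3 and Cxcl1 lie lower in LacZ D3 and Cfi, C1s1, Cnn1 and Col11a1 higher, while Isg15, Tk1 and Tagln are nearly level.

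Immediate early genes, which cells switch on within minutes of a stimulus such as serum or dissociation, had more falls than rises. Of 21 tested, 9 fell and 1 rose (median -0.78). Fosl1, an AP-1 subunit, had 0.66 and 0.74 in LacZ D3, against 3.27 and 3.23 in CF D0 (-2.55 ± 0.10, adjusted p = 4.0e-10). Egr2, a zinc finger factor of the growth response, changed by -2.21 ± 0.12 and Fos by -1.31 ± 0.10. The exception was Klf4 (1.34 ± 0.08), a zinc finger factor also used for reprogramming. The inducible chaperone Hspa1a fell by 3.02 and was the only 1 of 15 heat shock genes to do so, while the small heat shock protein Hspb8 rose by 1.35. With all 34 arrays in the fit, 5 immediate early genes were called lower and Hspa1a was not called (adjusted p = 0.061).

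Genes that copy DNA were called lower or not at all. Of 26 DNA replication genes, 14 fell and 0 rose (median -1.07). Mcm5, a subunit of the replicative helicase, stood at 2.21 and 2.14 in LacZ D3, against 3.70 and 3.79 in CF D0 (-1.57 ± 0.17, adjusted p = 4.3e-06). Cdc6, which loads that helicase, changed by -1.54 ± 0.20, and Mcm2, another helicase subunit, by -1.15 ± 0.13. The sliding clamp gene Pcna came to -0.99, just short of 2-fold, and thymidine kinase Tk1 to -0.03. All 26 were above background on all 4 arrays. In the fit of all 34 arrays 9 of the 26 were called lower, and Mcm5 was not among them (adjusted p = 0.083).

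For mitosis, 2 of 28 genes rose and 0 fell (median 0.33). They were the centromeric histone Cenpa, at 2.07 and 2.08 in LacZ D3, against 0.93 and 0.98 in CF D0 (1.11 ± 0.15, adjusted p = 2.3e-05), and the kinetochore gene Cenpf. Cenpf was dim, at -5.12 and -5.44 in LacZ D3, and well above background on no CF D0 array, so it has no fold. It was not called with all 34 arrays in the fit (adjusted p = 0.081), with the authors' log2 values or after normexp background correction. The cyclin Ccnb1 had 2.92 and 2.85 in LacZ D3, against 2.51 and 2.57 in CF D0, and was not called. In LacZ D10 relative to LacZ D3, 11 of 28 mitosis genes and 1 of 26 replication genes were lower, where 6.2% of all genes were. In LacZ D14 relative to CF D0, on 1 slide, 22 replication genes were lower, where 14.7% of all genes were. There 3 mitosis genes were lower and 1 was higher, beside 14.7% and 16.9% of all genes.

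The E2F motif, searched as TTTNGCGC on both strands, was in 7 of the 20 promoters of the replication list in the table, against 1.38% of all promoters, and in 4 of the 10 whose gene fell. The promoters of Mcm5 and Mcm6, 2 subunits of the same helicase that both fell (Mcm6 by 1.35), each hold overlapping matches on both strands, in capitals, and Mcm6 holds 1 more.
Mcm5 (chr8:75109259-75109558, + strand): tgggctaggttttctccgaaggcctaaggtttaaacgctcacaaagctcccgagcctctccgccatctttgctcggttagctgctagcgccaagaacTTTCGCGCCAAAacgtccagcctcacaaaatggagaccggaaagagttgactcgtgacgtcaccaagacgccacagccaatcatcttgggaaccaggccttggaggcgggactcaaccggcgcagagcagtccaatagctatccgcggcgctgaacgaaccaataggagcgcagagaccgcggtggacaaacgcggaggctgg
Mcm6 (chr1:128359656-128359955, - strand): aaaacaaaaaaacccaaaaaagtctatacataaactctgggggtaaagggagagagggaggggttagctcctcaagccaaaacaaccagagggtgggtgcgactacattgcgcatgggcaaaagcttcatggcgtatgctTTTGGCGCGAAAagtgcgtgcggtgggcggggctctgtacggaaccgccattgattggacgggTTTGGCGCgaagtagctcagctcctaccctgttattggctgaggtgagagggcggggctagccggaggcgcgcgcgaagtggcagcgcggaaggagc

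Inhibitors of cell cycle kinases rose in part. Of 22 genes of this group and of p53 targets, 6 rose and 0 fell (median 0.53). The neighbours Cdkn2b and Cdkn2a, whose products p15 and p16 block the cyclin D kinases, led. Cdkn2b stood at 2.95 and 2.96 in LacZ D3, against -0.21 and -0.34 in CF D0 (3.23 ± 0.12, adjusted p = 2.1e-10), and Cdkn2a at 0.41 and 0.22 in LacZ D3, against -1.87 and -1.93 in CF D0 (2.21 ± 0.12). Cdkn2a was higher again in LacZ D10 than in LacZ D3 (3.71 ± 0.12, adjusted p = 6.5e-10), and in LacZ D14 it reached 5.43 and 5.25. The inhibitor p21, Cdkn1a, was not called (-0.36 ± 0.10), and the mean of its probes had the other sign (0.10). The others that rose were Gadd45a, Gdf15, Pmaip1 and Sesn2.

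Contractile genes of smooth muscle and myofibroblasts rose at 9 of 18 and fell at 0 (median 0.94). Cnn1, which encodes the actin-binding calponin, stood at 5.11 and 5.12 in LacZ D3, against 1.26 and 1.17 in CF D0 (3.90 ± 0.09, adjusted p = 3.0e-12). Smooth muscle myosin Myh11, at -2.06 and -2.25 in LacZ D3 and not well above background on either CF D0 array, was at least 7.25-fold higher. Lmod1, which nucleates smooth muscle actin filaments, changed by 2.73 ± 0.15, and Itga11, a collagen-binding integrin of myofibroblasts, by 2.39. The markers most used for myofibroblasts were already among the brightest genes on day 0. Acta2, smooth muscle actin, had 8.62 and 8.61 in LacZ D3, against 8.13 and 8.22 in CF D0 (0.44 ± 0.12), and Tagln had 8.29 and 8.29 in LacZ D3, against 8.02 and 8.16 in CF D0. Neither was called. On the slide of CF D0, 8 of the 18 were higher in LacZ D14 and 1 lower, where 16.9% of all genes were higher. The CArG box, to which serum response factor binds, matched 3 of 13 promoters of the list on either strand, against 1.57% of all promoters, and 1 of the 6 whose gene rose. Pericyte markers, which smooth muscle genes can accompany, were lower at 3 of 8 (Vtn, Cspg4 and Rgs5) and higher at 0. Their summed level was 6.23 to 6.24 in LacZ D3, against 6.96 in CF D0, and their part in the changes was not tested.

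Of the collagen chains, 4 of 17 rose and 2 fell. Col11a1, a fibril-nucleating chain, had 3.92 and 3.97 in LacZ D3, against -0.99 and -1.22 in CF D0 (5.05 ± 0.08, adjusted p = 3.0e-13). The others that rose were Col14a1 (2.17 ± 0.10), Col8a1 and Col1a2. Col5a3, another chain of fibrillar collagen, went the other way, at -0.60 and -0.61 in LacZ D3, against 3.44 and 3.20 in CF D0 (-3.93 ± 0.24, adjusted p = 1.7e-08), as did Col15a1 of the basement membrane zone (-2.54 ± 0.36). The main fibrillar chain Col1a1 was not called (0.45 ± 0.28, adjusted p = 0.18). In the fit of all 34 arrays 1 collagen was called higher, and Col14a1 was not called (adjusted p = 0.075).

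Other matrix genes also changed in both directions. Of 25 glycoproteins and proteoglycans, 8 rose and 4 fell. The phosphoprotein osteopontin, Spp1, which macrophages also make, stood at 2.48 and 2.52 in LacZ D3, against -1.62 and -1.72 in CF D0 (4.17 ± 0.48), and the elastic fibre gene Fbln5 changed by 2.40 ± 0.08. Tenascin C, Tnc, a matrix protein of wounds, fell by 2.88 (-0.09 and -0.13 in LacZ D3, against 2.71 and 2.84 in CF D0), and the others that fell were Comp, Mfap5 and Vcan. Comp was not called in the fit of all 34 arrays (adjusted p = 0.061), where 4 of the list were called higher. Enzymes that cross-link or mature collagen rose at 7 of 16 and fell at 0, led by the lysyl oxidases Loxl4 (1.86 ± 0.08) and Loxl2 (1.81 ± 0.12), while Lox itself was not called (0.46 ± 0.07). Proteases and their inhibitors rose at 6 of 23, with the aggrecanase Adamts5 at 2.59 ± 0.09 and Mmp11 at 2.22 ± 0.12, and fell at 4, with the collagenase Mmp13 at -3.45 ± 0.26 in front. Of those 4, 2 were called lower without replicate 1 of LacZ D3 and 2 in the fit of all 34 arrays.

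**Figure D3:**
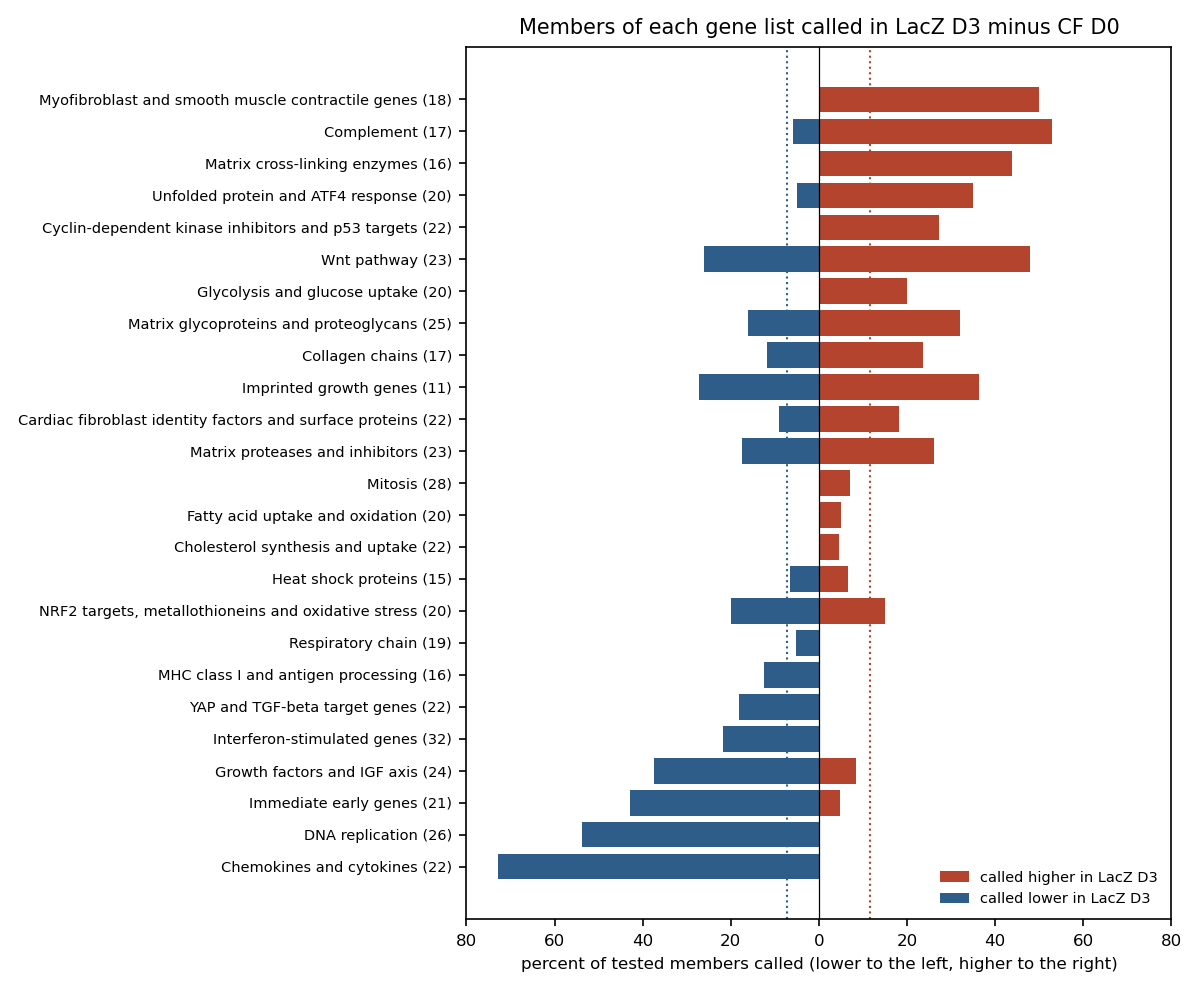
Share of the tested members of each of 25 gene lists that were called (horizontal axis, percent), higher in LacZ D3 to the right and lower to the left, with the number of tested members in brackets. Dotted lines mark the share over all genes, 11.6% higher and 7.28% lower. Contractile and complement genes extend farthest to the right, cytokines and DNA replication farthest to the left.

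Most genes of cardiac fibroblast identity were not called. Of 22 factors and surface proteins, 4 rose and 2 fell. S100a4, a calcium-binding protein of fibroblasts and leukocytes, had 7.04 and 7.04 in LacZ D3, against 4.57 and 4.55 in CF D0 (2.48 ± 0.12, adjusted p = 2.0e-09), and the dipeptidase gene Dpep1 changed by 2.20 ± 0.14. Tcf21, a factor that specifies cardiac fibroblasts, rose by 1.12 (adjusted p = 6.5e-08), and Pdgfrb was the fourth. Pi16 (-2.08 ± 0.20), a marker of a progenitor-like fibroblast state, fell, and so did the homeobox factor Meox1 (-1.14 ± 0.09). Tcf21 (adjusted p = 0.31) and Meox1 (adjusted p = 0.54) were not called in the fit of all 34 arrays, and the authors' log2 values placed Meox1 at -0.98.

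Growth factors and genes of the IGF axis, with its receptors and binding proteins, were lower more than higher. Of 24 genes, 9 fell and 2 rose. The BMP antagonist Grem1 had -2.60 and -2.68 in LacZ D3, against 0.04 and 0.13 in CF D0 (-2.72 ± 0.25), and the fetal growth factor Igf2 had -3.07 and -3.22 in LacZ D3, against -0.71 and -0.36 in CF D0 (-2.61 ± 0.38). Ereg, Hgf, Vegfc and Hbegf were among the others that fell. Vegfa, which drives vessel growth, rose by 1.28 (adjusted p = 1.4e-07), and Fgf10 was the other. A list of YAP and TGF-beta targets, which also holds ligands, receptors and mediators of these pathways, had 4 of 22 lower and 0 higher. They were the cytokine Il11 (-2.69 ± 0.09), Ltbp2 (-1.62 ± 0.12), which binds microfibrils, Ccn1 (-1.43) and the ligand Tgfb1 (-1.13). Ccn2, the most used reporter of both pathways, was at 8.43 and 8.44 in LacZ D3, against 8.50 and 8.48 in CF D0.

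The Wnt list moved in both directions, with 11 of 23 higher and 6 lower. Beside Ccn5, Ccn4 rose by 1.60 and Frzb, a secreted Wnt antagonist, by 1.80 ± 0.12. The antagonist Sfrp2 fell by 2.26 and Wif1, not well above background on either LacZ D3 array, was at least 2.82-fold lower. The nuclear mediators and targets Lef1 (-2.14), Tcf7 (-1.96) and Axin2 (-1.60) were lower. Frzb (adjusted p = 0.083) and Sfrp2 (adjusted p = 0.15) lost the call in the fit of all 34 arrays, where 7 of the list were called higher. Of 11 imprinted growth genes, 4 rose, led by Peg10 (2.95 ± 0.21), and 3 fell, led by Dlk1, a Notch-like inhibitor of differentiation, at 0.80 and 0.81 in LacZ D3, against 3.86 and 3.74 in CF D0 (-2.99 ± 0.15).

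Among stress and metabolic genes, the list of the unfolded protein response and of ATF4, a factor that answers amino acid shortage, had 7 of 20 higher and 1 lower. Trib3, a pseudokinase induced through ATF4, had 6.35 and 6.31 in LacZ D3, against 3.44 and 3.51 in CF D0 (2.86 ± 0.10, adjusted p = 1.7e-10). Ddit4, which restrains mTORC1, changed by 2.25 ± 0.28 and Chac1, a glutathione-degrading enzyme, by 2.13. The chaperone Hspa5 was not called (-0.44 ± 0.07). For NRF2 targets and oxidative stress, 3 of 20 rose, the extracellular dismutase Sod3 (2.10 ± 0.13), Gpx3 (1.87 ± 0.06) and Gstm1, and 4 fell, led by mitochondrial Sod2 (-1.79 ± 0.09). Glycolysis had 4 of 20 higher, with the isoform Aldoc at 1.85 ± 0.20 and the kinase Pdk1 at 1.85 ± 0.27. The remaining lists had at most 1 call: the respiratory chain 1 of 19 lower (Cox8b, -1.44), fatty acid oxidation 1 of 20 higher (Ppargc1a, 1.89) and cholesterol synthesis 1 of 22 higher (Stard4, 1.06), whose call ended when replicate 1 of CF D0 was left out (0.93).

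Markers of other cell types were called in both directions, beside 11.6% higher and 7.28% lower over all genes. The cardiomyocyte list had 8 of 21 lower and 2 higher. Its median level was lower, at -2.57 and -2.46 in LacZ D3, against -1.09 and -1.28 in CF D0. Its summed level, as log2, was higher, at 6.43 to 6.47 in LacZ D3, against 5.23 to 5.38 in CF D0. The rise of the sum came mostly from 1 gene, Tnnt2. The ventricular myosin Myh7 stood at -2.32 and -2.42 in LacZ D3, against 0.34 and 0.03 in CF D0 (-2.55 ± 0.20), while troponin T, Tnnt2, rose to 5.75 and 5.67 in LacZ D3, against 2.31 and 2.17 in CF D0 (3.47 ± 0.11, adjusted p = 7.7e-11). Myl4, the other that rose, changed by 1.21 ± 0.10, and Myh6 was level (-0.08 ± 0.14). Myh6 was lower later, with a change of -4.88 ± 0.14 in LacZ D10 relative to LacZ D3 (adjusted p = 1.1e-10).

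A list of dendritic cell markers and of MHC class II, which dendritic cells and B cells use to present antigen, had 4 of 7 lower. The summed level of this mixed list was 0.30 to 0.34 in LacZ D3, against 2.27 to 2.29 in CF D0. H2-Ab1 had -3.56 and -3.75 in LacZ D3, against 0.63 and 0.61 in CF D0 (-4.28 ± 0.15), and the invariant chain Cd74 changed by -3.33 ± 0.26. Macrophage genes split, with Lyz2 (1.58 ± 0.31) higher and Marco (-1.72 ± 0.32) and Cd14 (-1.72 ± 0.27) lower, and neither Lyz2 (adjusted p = 0.14) nor Marco (adjusted p = 0.12) was called in the fit of all 34 arrays. Endothelial genes were lower at 4 of 16 and higher at 1, among the lower ones the tight junction gene Cldn5 (-3.58 ± 0.27) and the lymphatic chemokine Ccl21a (-2.64 ± 0.32). The receptor Kdr was called higher (1.13 ± 0.25), but its probes disagreed, at -1.39 and 1.13, and their mean was not called (-0.13).

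Of 5 erythroid genes tested, 2 were lower, both globins, and 0 higher. The median level was -6.22 and -5.84 in LacZ D3, near the lower limit of measurement, against -1.48 and -2.48 in CF D0. The summed level was 6.09 to 6.13 in LacZ D3, against 6.82 to 6.85 in CF D0. That sum lay far above the 2 called globins, so it came mostly from members that were not called. Hbb-bt, which encodes a beta globin, was at least 12.8-fold lower, and Hba-a1 stood at -3.75 and -3.86 in LacZ D3, against 0.28 and -0.36 in CF D0 (-3.76 ± 0.23). Of the other lists, mast cells had 3 of 5 lower and 1 higher, granulocytes 1 of 9 lower and 2 higher, and lymphocytes 3 of 8 lower and 1 higher. Schwann cells and neurons had 0 of 9 lower and 3 higher, and adipocytes 0 of 4 in either direction. Over all genes 7.28% were lower and 11.6% higher. These lists were partly dim: above background on all 4 arrays were 3 mast cell, 6 granulocyte, 4 lymphocyte, 7 Schwann cell or neuron and 2 adipocyte genes. Epicardial and mesothelial markers had 4 of 10 higher, led by the uroplakin Upk3b (2.63 ± 0.12), and 1 lower, the retinoic acid enzyme Aldh1a2 (-2.03 ± 0.09). In the fit of all 34 arrays, 1 epicardial, 1 Schwann cell or neuron, 1 granulocyte and 0 macrophage genes were called higher, and after normexp background with quantile normalization 2 epicardial genes were.

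Among genes named by the rule, the largest falls outside the lists were those of Sprr2h, Reln, Sprr2e, Penk and Cnmd. Sprr2h, a proline-rich protein of the cornified envelope, stood at -5.53 and -5.62 in LacZ D3, against 3.30 and 3.24 in CF D0 (-8.85 ± 0.54, adjusted p = 2.1e-08), and 1 of the LacZ D3 arrays was well above background. Its relative Sprr2e was at least 32-fold lower. Penk, the precursor of the enkephalin opioids, fell by 6.19 (-4.88 and -4.65 in LacZ D3, against 1.63 and 1.22 in CF D0). Reln, the secreted protein reelin, was at least 20.2-fold lower. For Cnmd, a cartilage protein that inhibits vessel growth, the replicates of CF D0 were far apart, at 0.18 and -3.66, and it was at least 15.1-fold lower in LacZ D3.

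The factors that the MGT virus carries were not called in the LacZ cells. Gata4 stood at 2.97 and 2.87 in LacZ D3, against 2.55 and 2.42 in CF D0, Mef2c at -3.64 and -3.63 in LacZ D3, against -3.51 and -3.27 in CF D0, and Tbx5 at -1.48 and -1.55 in LacZ D3, against -2.76 and -1.66 in CF D0. Without replicate 2 of CF D0, the CF D0 array nearer to LacZ D3, Tbx5 was called higher (1.25). In MGT D3, on the slide of LacZ D3, Mef2c was at 3.09 and 3.20.

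The called genes were also followed on other arrays. The 2094 higher genes had medians of -1.43 and -1.42 in LacZ D3, against -3.35 and -3.35 in CF D0, and -1.12 and -1.17 in LacZ D14 on the slide of CF D0. The 1314 lower genes had medians of -1.73 and -1.73 in LacZ D3, against 0.02 and -0.02 in CF D0, and -1.71 and -1.93 in LacZ D14. Both sets were chosen by their difference between LacZ D3 and CF D0, so only the values of the other arrays are independent of that choice. The freshly isolated fibroblasts of the series (neoCF), also on the slide of CF D0, had medians of -1.58 and -1.83 for the higher genes and -0.46 and -0.51 for the lower ones.

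**Figure D4:**
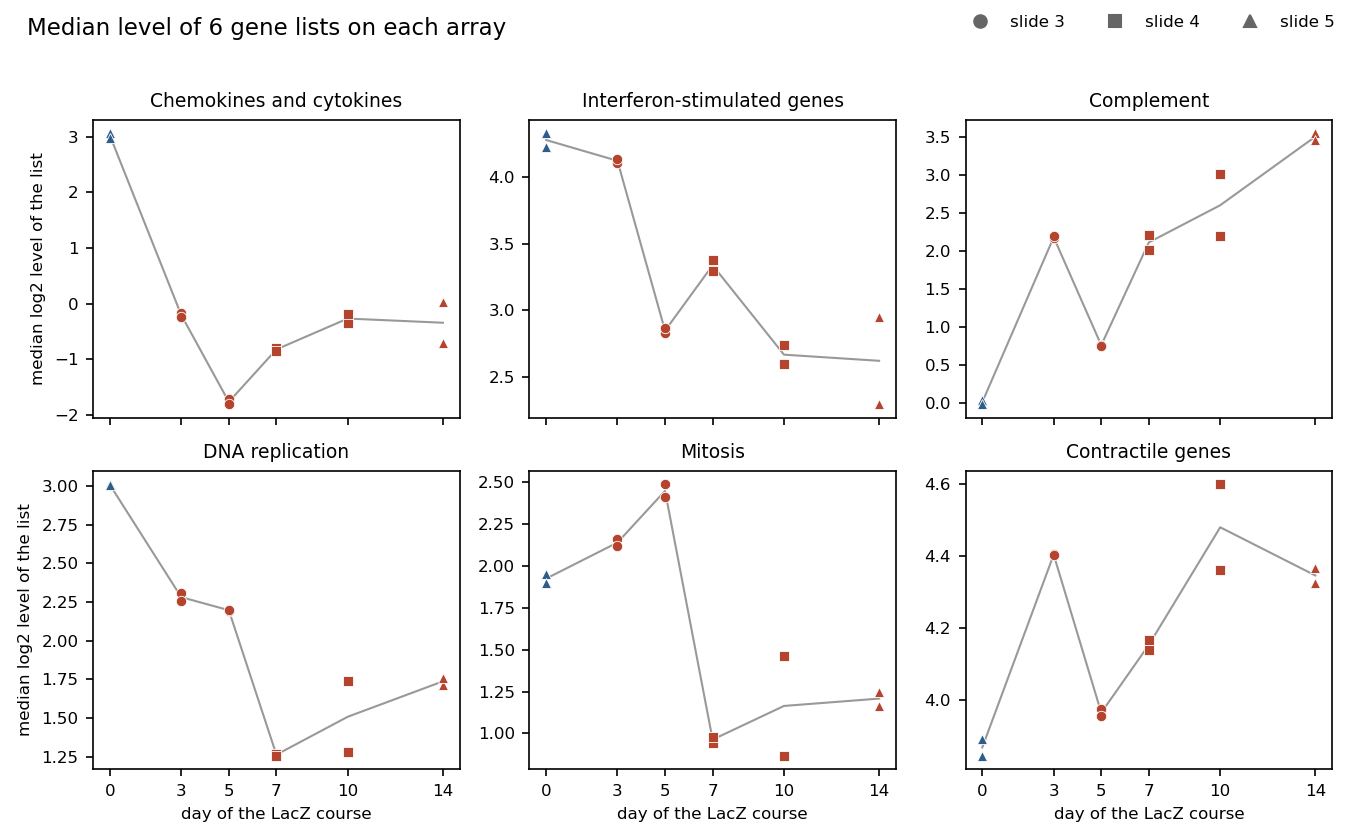
Median log2 level of 6 gene lists on each array (vertical axis) by day of the LacZ course (horizontal axis), with CF D0 at day 0. Points are arrays, shapes mark the slide, and the line joins the means of 2 arrays. Cytokines drop between CF D0 and LacZ D3, interferon-stimulated genes after day 3 and mitosis genes after day 5. CF D0 was on slide 5, LacZ D3 and LacZ D5 on slide 3, and LacZ D7 and LacZ D10 on slide 4. The drops of cytokines and of mitosis genes thus fall at a change of slide, and the 2 cannot be told apart.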

How the data were processed

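Scanner files hold fluorescence intensity per spot, which Agilent Feature Extraction (version 10.7.3.1 in the deposited file headers) had background-adjusted and detrended. The log2 values the authors deposited came as a matrix, for which the submitters' processing notes name limma without a version. It served as an alternative. Spots marked as outliers were left out, log2 intensities averaged per probe and each array's 75th percentile subtracted. Probes were paired with genes by RefSeq (GRCm38.p6) accession or symbol. The 20964 probes with no name, and 4531 with only an array name that was paired with no gene, were not tested by gene. Probes entered if both arrays of any of the 11 groups were well above background, and the brightest probe stood for its gene.

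The 22 arrays of CF D0 and of MGT and LacZ on days 3 to 14 entered 1 limma 3.58.1 fit (R 4.3.3, data.table version 1.17.8) with 11 residual degrees of freedom, moderated by eBayes, which assumes that all groups vary alike. The fit was tested on simulated data. Python 3.11.15, numpy 2.4.6, pandas 2.3.3 and matplotlib 3.10.9 did the rest. Alternatives covered the arrays in the fit, scaling, background, filters, probe summary, weights, a test against 2-fold (treat), the replicate number as a block and each array left out. The number of arrays limits the precision, and no spot was saturated.

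The comparison, its members and the 37 gene lists were chosen with earlier results of these data known. Genes named by rule were the 8 highest and 8 lowest changes among called genes that have an established symbol and pass background on the higher side, the 2 largest rises and falls of each list, the first gene of each programme list, and Mef2c, Gata4 and Tbx5. Further list members and Tubb3-ps1 were named after their values were seen, and the text names fewer than the rule allows, since some genes are not reported here. Of 664 list members 638 were tested, 4 of them under a newer symbol.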

Additional observations from a re-analysis of the deposited data

Results flagged for a closer look

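Probes paired with no gene, with or without a name on the array, were called at 16.1%. Of 15026 kept, 1356 were higher and 1067 lower in LacZ D3, in data that the comparison of genes did not use. Of the 9517 among them that were well above background on all 4 arrays, 700 were higher and 687 lower (14.6%). They stand beside 18.9% for the genes tested.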

How the results depend on the processing

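The count of 3408 called genes stayed within 1.5 times under every alternative except the following. After normexp background with quantile normalization 2145 were called, 1338 higher and 807 lower. With treat against 2-fold there were 1484, 1017 higher and 467 lower. Among genes above background on all 4 arrays 1331 were higher. Leaving out 1 of the 4 arrays gave 3200 to 3358 calls, 1973 to 2058 higher and 1227 to 1300 lower. Of 113 called genes that the rule names, 71 kept the call under every alternative, 6 lost it on leaving out 1 of the 4 arrays, and 1 changed sign: Kdr, at -0.13 by the mean of its probes. Cdkn1a, not called, was 0.10 by that mean, and Ndufa4, not called, was -0.0004 without CF D0 replicate 1 and ranged from -0.0035 to 0.0128 as each of the 4 arrays was left out. The fit of all 34 arrays, whose spread includes other cell types, ended 21 of the calls and treat 30, and the cause was not tested. With treat, 2 replication and 2 interferon-stimulated genes were still called lower. Replicate numbers did not pair the samples (r = -0.04 between same-numbered deviations of LacZ D3 and CF D0). With the replicate block 3406 genes were called, and no call of a named gene changed. With the 4 arrays alone in the fit 3444 genes were called, again with no change of a named call. Adjusted p-values differed there, for Ccn5 0.00054 rather than 2.2e-13 and for Ifit1 0.039 rather than 0.2. Leaving out LacZ D14 replicate 2 (3454 calls), the dimmest array, or the MGT arrays (3281) was chosen after seeing the data. Slide as a random block could not be fitted, since no group of the fit spans slides.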

Other observations

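Several gene families outside the lists had many calls. They were picked after their values were seen, so they have counts and no test. Over all genes, 11.6% were higher and 7.28% lower in LacZ D3 relative to CF D0. In LacZ D14 relative to CF D0, 16.9% were higher and 14.7% lower. Of genes with a mean level under -4, 28.3% were called in LacZ D3. Hox genes, which mark position along the body axis, were higher at 15 of 28 and lower at 0, with a median level of -3.73 and -3.80 in LacZ D3, against -5.68 and -5.44 in CF D0. Most were dim: 8 of the 28 were above background on all 4 arrays, and 5 of those were higher. Hoxa3 changed by 2.10, and Hoxb9, not well above background on either CF D0 array, was at least 6.91-fold higher. On the slide of CF D0, 20 of the 28 were higher in LacZ D14 and 0 lower. The protease inhibitors of the Serpina3 cluster, whose close copies may share signal, were higher at 7 of 8, with Serpina3b at 2.73 and Serpina3c at least 9.86-fold higher.

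Genes of the cornified envelope (Sprr and Lce) were lower at 16 of 27 and higher at 4. Of the 13 above background on all 4 arrays, 8 were lower and 3 higher. The brightest member, Sprr2a2, was not called (0.11), and the bright Lce1a2 (1.01) and Lce1j (1.07) were higher. Sprr1a, known from injured nerve and stressed heart, changed by -2.90. In LacZ D14 relative to CF D0, 11 of the 27 were lower and 1 higher. Lce1g changed by -4.40 in LacZ D3 and by -1.37 in LacZ D14, both relative to CF D0. Among Slfn genes, which interferon induces in mouse, 5 of 7 were lower and 0 higher, with Slfn4 at -4.14. Receptors of bacterial products on myeloid cells, the Fpr and Clec4 genes, were lower at 9 of 13 and higher at 0, including Clec4e at -3.59 and Fpr2 at -3.56. On the slide of CF D0, 5 of these 13 were lower in LacZ D14, and Fpr1, at -3.19 in LacZ D3, was at -0.87 there, both relative to CF D0. For Slfn genes 6 of 7 were lower in LacZ D14, and for Serpina3 genes 6 of 8 were higher and 1 lower. Macrophage, granulocyte and dendritic cell markers are given with the comparison, and their part in this fall was not tested.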
